A study of Mus musculus with 4 samples.

Results

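The 37 genes described here were listed as markers of cell types other than the muscle stem cell. Of these, 8 were for fibroblasts and fibro-adipogenic progenitors, 5 for tenocytes and 9 for endothelium. Another 5 were for smooth muscle and pericytes, 5 for glia and 5 for erythroid cells. The 37 were chosen by symbol from the 55487 genes of the deposited tables, as a gauge of RNA from other cells in libraries made from satellite cells. All 37 were listed, and all 37 passed the filter on low counts. The libraries came from 2 mice that carried Tg:Pax7-nGFP, a transgene that puts a nuclear green fluorescent protein under control of Pax7, the satellite cell transcription factor. Minced skeletal muscle of each mouse was exposed, in the first digestion, to a vivo-morpholino against inclusion of Numb exon 6 or to a control morpholino, and satellite cells were isolated afterwards. A vivo-morpholino is an antisense oligomer that enters cells without transfection. Each mouse therefore gave 1 Numb exon 6 library and 1 control library, which makes 2 libraries per group and 4 in all. The other cells of the muscle met the same oligomers, and the way in which satellite cells were sorted, and the age and sex of the mice, are not in the labels.

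Skeletal muscle holds its stem cells between the fibre and its basal lamina, beside capillaries, fibro-adipogenic progenitors, nerve endings with their glia, and the tendon cells at the fibre ends. Dissociation frees all of these together with blood, and a sort or gate can let a share of other cells, or of RNA released from them, through to the satellite cell fraction. Red cells of mammals have no nucleus but keep globin mRNA while they mature, so globin RNA can be high where transcripts of nucleated erythroid precursors are scarce. In bulk libraries such as these, fewer cells of a type and less RNA per cell cannot be told apart.

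The totals of estimated counts lay between 230431665 and 355411827 per library, but low values piled up at multiples of 4, so these totals are not numbers of fragments. Satellite cell markers were abundant in all 4 libraries. Sdc4, a syndecan on satellite cells, had 7673 TPM (a level scaled to transcript length and library) with the Numb exon 6 and 6991 with the control morpholino in mouse 2, and 7328 with Numb exon 6 and 6499 with control in mouse 1. Pax7 had 59.7 TPM with the Numb exon 6 and 51.4 with the control morpholino in mouse 2, and 50.87 with Numb exon 6 and 37.04 with control in mouse 1. Numb itself had 40.20 TPM with the Numb exon 6 and 36.99 with the control morpholino in mouse 2, and 39.7 with Numb exon 6 and 27.2 with control in mouse 1. A gene-level value does not check whether exon 6 was skipped. The 2 rRNA-like genes took 8.44% of the TPM with Numb exon 6 and 8.47% with control in mouse 2, and 11.1% with Numb exon 6 and 14.8% with control in mouse 1. The 13 leukocyte markers summed to 134 TPM with Numb exon 6 and 38.0 with control in mouse 2, and to 43.8 with Numb exon 6 and 33.2 with control in mouse 1. Of these, 9 of the 13 were higher with the Numb exon 6 morpholino in both mice, against 28.1% of all genes tested, and none was at 0.

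The markers of other cell types differed widely in level, and how much of their RNA satellite cells made themselves was not tested. Summed over a list, the erythroid genes reached 1733 TPM with the Numb exon 6 and 1532 with the control morpholino in mouse 2, and 928 with Numb exon 6 and 538 with control in mouse 1. The fibroblast list summed to 1225 TPM (Numb exon 6) and 1235 (control) in mouse 2, and to 1302 (Numb exon 6) and 1221 (control) in mouse 1. The other 4 lists were lower, with smallest and largest sums of 76.2 and 142 TPM for endothelium, 121 and 181 TPM for the mural list of smooth muscle and pericytes, 64.4 and 142 TPM for glia, and 47.6 and 60.3 TPM for tenocytes. The satellite cell list of 12 genes summed to 11240 to 13260 TPM over the same libraries.

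**Figure D1:**
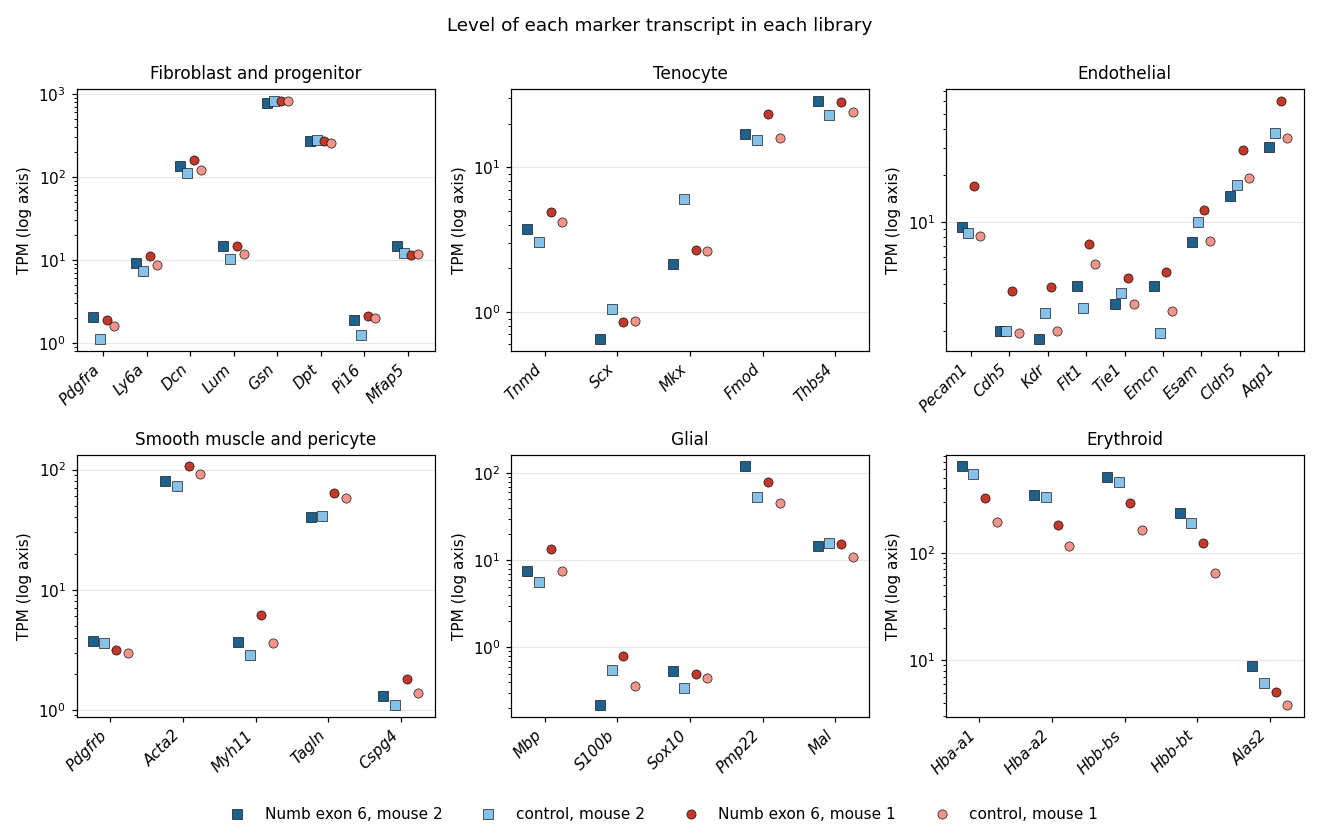
TPM (log axis) of the 37 marker genes in each of the 4 libraries, 1 panel per cell type. Points are single libraries, red for mouse 1 and blue for mouse 2, dark for the Numb exon 6 morpholino and light for the control; all 5 erythroid genes lie higher in mouse 2, and all 9 endothelial genes are highest in the Numb exon 6 library of mouse 1.

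Between the morpholinos, most members were a little higher in the Numb exon 6 libraries. With log2 CPM compared within each mouse, 23 of the 37 were higher with the Numb exon 6 morpholino in both mice, against 28.1% of the 27551 genes tested, and 2 were lower in both, against 27.3%. The 23 were 5 of 8 fibroblast, 3 of 5 tenocyte, 3 of 9 endothelial, 4 of 5 smooth muscle and pericyte, 3 of 5 glial and 5 of 5 erythroid genes. A further 11 were higher in mouse 1 and lower in mouse 2, against 22% of all genes, and 1 was lower in mouse 1 and higher in mouse 2, against 21.9%. Genes of a cell type share its RNA, and all members share the same 4 libraries, so these counts are not independent observations. The sign differs between CPM and TPM for Gsn, Scx and Mkx in mouse 1 and for Cdh5 in mouse 2. The median log2 fold change (Numb exon 6 minus control) was 0.27 over the members and 0.005 over all genes tested. By list the median was 0.25 for fibroblasts, 0.19 for tenocytes, 0.12 for smooth muscle and pericytes, 0.28 for endothelium, 0.42 for glia and 0.34 for erythroid cells. On the CPM scale both Numb exon 6 libraries lay above both controls for 9 members (Pdgfra, Dcn, Lum, Fmod, Thbs4, Pecam1, Emcn, Pmp22 and Sox10), against 17.4% of all genes, and below both for Gsn and Mkx, 2 members, against 17.1%. Most leukocyte markers were higher too, and their part in these differences was not tested. Of the 12 satellite cell markers, 7 were higher in both mice and 1 was lower in both, with a median log2 fold change of 0.098. The direction was thus not particular to markers of other cell types. Of the 12 myofibre markers, 4 were higher in both mice and 2 lower in both, with a median of -0.018.

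No member passed the test across all genes. edgeR's quasi-likelihood test called 0 of 37 members at an adjusted p under 0.05 and 0% of all genes, and the adjusted p was 0.999 for every member. At an unadjusted p under 0.05 it held 1 member, Pmp22, against 4.16% of all genes. In a fit with a block for the mouse, 0 members and 0% of all genes were called, and 9 members had an unadjusted p under 0.05, against 6.09% of all genes. DESeq2 called 1 member, again Pmp22, where it called 0.283% of all genes, and with the block it called Pmp22 alone of the members and 0.62% of all genes. With 2 libraries per group, the absence of a call does not show that a gene did not differ.

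**Figure D2:**
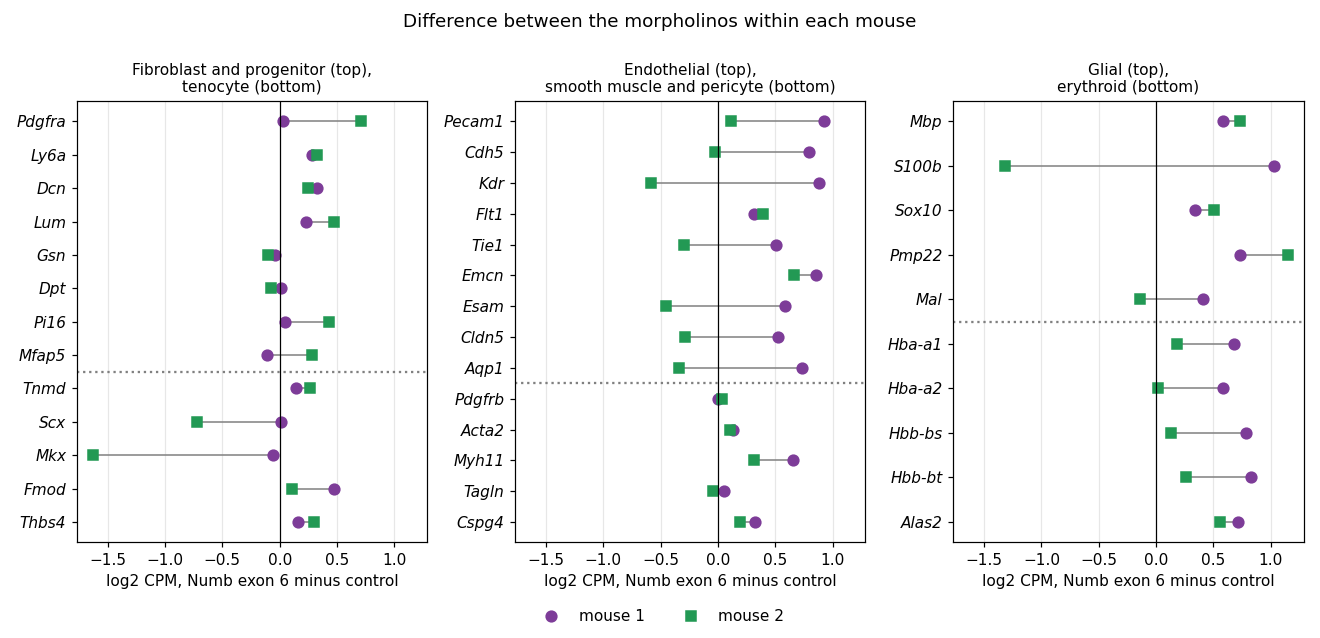
Difference in log2 CPM between the Numb exon 6 and the control library within mouse 1 (circles) and mouse 2 (squares) for each member; the grey line joins both mice and the vertical line marks no difference. For 6 of the 9 endothelial genes the mice stand on opposite sides of 0, while all 5 erythroid genes are on the positive side in both.

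The erythroid list had the highest median level of the 6, at 243 TPM over its genes' means. Its genes encode the adult alpha-globins Hba-a1 and Hba-a2, the adult beta-globins Hbb-bs and Hbb-bt, and Alas2, the erythroid form of the enzyme that starts heme synthesis. Hba-a1 had 637 TPM with the Numb exon 6 and 547 with the control morpholino in mouse 2, and 325 with Numb exon 6 and 192 with control in mouse 1. Hba-a2 had 345 TPM (Numb exon 6) and 333 (control) in mouse 2, and 181 (Numb exon 6) and 115 (control) in mouse 1. Hbb-bs had 508 TPM (Numb exon 6) and 454 (control) in mouse 2, and 294 (Numb exon 6) and 162 (control) in mouse 1. Every globin was thus higher in both libraries of mouse 2 than in either library of mouse 1, and higher in the Numb exon 6 library than in the control of its own mouse. Hbb-bt had 235 TPM with the Numb exon 6 and 191 with the control morpholino in mouse 2, and 122 with Numb exon 6 and 65.4 with control in mouse 1. Alas2 had 8.83 TPM (Numb exon 6) and 6.17 (control) in mouse 2, and 5.06 (Numb exon 6) and 3.82 (control) in mouse 1, with the same order of libraries.

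The globin genes are near copies in pairs, which limits how reads can be shared out between them. Hba-a1 (GRCm38 chr11:32283511-32284465, plus strand) and Hba-a2 (chr11:32296489-32297298, plus strand) differ in 1 of 429 coding bases, C381T, and Hbb-bs (chr7:103826534-103828096, minus strand) and Hbb-bt (chr7:103812524-103813996, minus strand) differ in 1 of 444 coding bases, C417T. Positions are counted from 1 at the first base of the start codon, the first-named gene gives the first base, and neither change alters the amino acid, so each pair encodes 1 protein. The ends of the coding sequences from GENCODE vM21 transcripts, up to and including the stop codon, are shown because they hold the only base in which the coding sequences differ, which is in capitals.
Hba-a1: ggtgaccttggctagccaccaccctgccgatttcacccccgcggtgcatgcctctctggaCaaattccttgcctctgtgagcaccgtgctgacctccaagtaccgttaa
Hba-a2: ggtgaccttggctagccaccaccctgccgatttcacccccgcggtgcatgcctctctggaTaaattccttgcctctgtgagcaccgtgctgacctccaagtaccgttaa
Hbb-bs: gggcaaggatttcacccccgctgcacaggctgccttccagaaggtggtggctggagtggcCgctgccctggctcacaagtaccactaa
Hbb-bt: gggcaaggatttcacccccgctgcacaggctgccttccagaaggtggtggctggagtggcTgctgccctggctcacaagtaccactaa
Of all stretches of 100 bases in the annotated transcript, 56.5% of those of Hba-a1 also occur in Hba-a2 and 62.6% of those of Hbb-bs in Hbb-bt. The split within each pair is therefore uncertain. The annotated transcripts are 699 bases long for Hba-a1 and 554 for Hba-a2, and 628 for Hbb-bs and 703 for Hbb-bt. Because TPM is scaled to transcript length, the summed TPM of a pair also depends on that split, while a sum of reads would not.

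Sums over the pairs behaved alike. The alpha-globins summed to 982 TPM with the Numb exon 6 and 880 with the control morpholino in mouse 2, and to 506 with Numb exon 6 and 307 with control in mouse 1. The beta-globins summed to 743 TPM (Numb exon 6) and 645 (control) in mouse 2, and to 416 (Numb exon 6) and 227 (control) in mouse 1. The ratio of alpha to beta stayed between 1.22 and 1.36 over the 4 libraries while the globin total ranged between 534 and 1724 TPM. Hba-a1 took 62.2% to 64.9% of the alpha-globin TPM, and Hbb-bs 68.4% to 71.2% of the beta-globin TPM. The globin total was 195 times the Alas2 level with Numb exon 6 and 247 times with control in mouse 2, and 182 times with Numb exon 6 and 140 times with control in mouse 1.

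The promoters of the globin genes are shown because the levels of these genes ran in parallel over the libraries. Each line gives the 110 bases before the annotated start from RefSeq (GRCm38.p6), written on the gene's strand, and capitals mark matches on either strand to 3 motifs known from globin promoters. The first motif, CCAAT, is the box of that name. The second, ATATAA, is a form of the TATA box. The third, CACCC, is the box bound by erythroid Krüppel-like factor. The windows are chr11:32283562-32283671 (plus strand) for Hba-a1, chr7:103827929-103828038 (minus strand) for Hbb-bs, chr7:103813924-103814033 (minus strand) for Hbb-bt and chrX:150547307-150547416 (plus strand) for Alas2.
Hba-a1: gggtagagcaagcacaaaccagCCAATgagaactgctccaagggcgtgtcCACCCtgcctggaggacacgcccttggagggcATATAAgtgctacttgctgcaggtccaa
Hbb-bs: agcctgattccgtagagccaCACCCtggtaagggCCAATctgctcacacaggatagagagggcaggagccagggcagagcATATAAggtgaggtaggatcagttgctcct
Hbb-bt: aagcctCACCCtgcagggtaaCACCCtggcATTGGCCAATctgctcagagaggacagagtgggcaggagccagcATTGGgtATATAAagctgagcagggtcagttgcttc
Alas2: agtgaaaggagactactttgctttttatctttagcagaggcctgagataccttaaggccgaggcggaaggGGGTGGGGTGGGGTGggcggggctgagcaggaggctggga
The promoter of Hba-a2 is identical to that of Hba-a1 over all 297 aligned bases. All 4 globin windows hold the 3 motifs, which were chosen because they are known from globin promoters, so their presence there is no test. Of 32851 promoter windows of this length, 0.228% hold all 3, and the Alas2 window holds CACCC alone. Singly, CCAAT occurs in 20.2% of the windows, ATATAA in 4.1% and CACCC in 29.6%. A match of letters describes the sequence and is not a measured site, and the part of these motifs in the levels was not tested.

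Between the mice, the 4 globins showed the largest differences among the members. All 5 erythroid genes lay higher in both libraries of mouse 2 than in both of mouse 1, as did the pericyte gene Pdgfrb, which makes 6 members, against 20.9% of all genes. The log2 fold change (mouse 2 minus mouse 1, 2 libraries each) was 1.17 ± 0.23 (SE) for Hba-a1, 1.18 ± 0.20 for Hba-a2, 1.06 ± 0.26 for Hbb-bs and 1.16 ± 0.28 for Hbb-bt in edgeR. These were the 4 members higher in mouse 2 at an unadjusted p under 0.05, where 4.33% of all genes were. None passed adjustment over all genes, with adjusted p between 0.439 and 0.542, and the test called 0.0109% of all genes as higher in mouse 2. The summed level in mouse 2 was 1.87-fold that of mouse 1 between the Numb exon 6 libraries and 2.85-fold between the controls. The comparison sets 1 animal against 1 and cannot tell a mouse from its dissection, digestion or sort. The rRNA-like share was lower in mouse 2; with those genes removed from the TPM, the list summed to 1893 TPM with the Numb exon 6 and 1673 with the control morpholino in mouse 2, and to 1043 with Numb exon 6 and 632 with control in mouse 1.

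**Figure D3:**
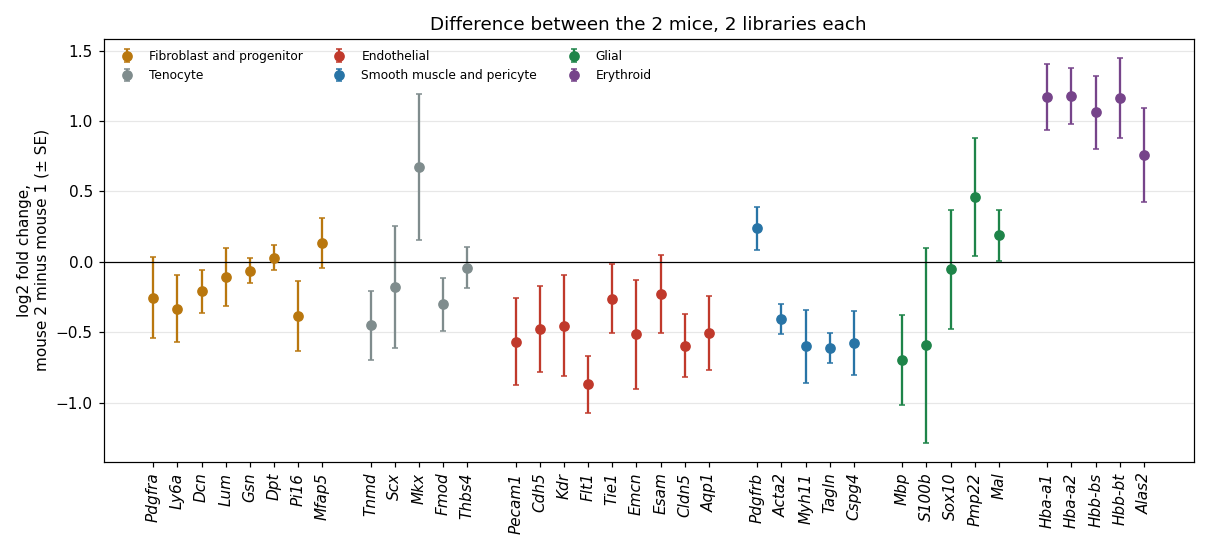
Log2 fold change, mouse 2 minus mouse 1, for each member with an SE derived from the edgeR test, coloured by cell type. Each mouse has 2 libraries, 1 per morpholino. The 4 globins lie between 1.06 and 1.18, while Acta2, Tagln, Myh11 and Cspg4 of smooth muscle and pericytes lie between -0.41 and -0.61.

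Between the morpholinos, the values of the erythroid differences were larger in mouse 1, and this gap between the mice was not tested. The log2 ratio within the mouse was 0.68 in mouse 1 and 0.18 in mouse 2 for Hba-a1, 0.58 and 0.02 for Hba-a2, 0.79 and 0.13 for Hbb-bs, 0.83 and 0.26 for Hbb-bt, and 0.72 and 0.56 for Alas2. The list summed to 1.72-fold the control in mouse 1 and 1.13-fold in mouse 2. Over both mice the log2 fold change was 0.33 ± 0.55 (SE) for Hba-a1, 0.34 ± 0.51 for Hbb-bs, 0.43 ± 0.55 for Hbb-bt and 0.62 ± 0.39 for Alas2, with SEs that take in the gap between the mice. The groups overlap for all 5 genes, because the control library of mouse 2 exceeds the Numb exon 6 library of mouse 1. The median of the list turned to -0.21 with the mouse 1 control left out and to -0.11 with mouse 2's Numb exon 6 library left out. It was 0.73 with mouse 1's Numb exon 6 library left out and 1.22 with the mouse 2 control left out. These fits had no block for the mouse, so each set 1 library of 1 mouse against both mice.

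The further erythroid genes differed widely in level. Among these genes, which were listed apart from the members, the transcription factor Klf1 had 0.146 to 0.421 TPM and Gata1, another, at most 0.0606 TPM. Fech, the enzyme that inserts iron in the last step of heme synthesis in many cell types, had 8.41 to 14.9 TPM. Bpgm, a bisphosphoglycerate mutase, had 7.97 to 11.6 TPM. These 4 were picked after their values were seen. Slc4a1, the band 3 anion exchanger of red cells, had 0.0454 TPM with the Numb exon 6 and 0.455 with the control morpholino in mouse 2, and 0.0466 with Numb exon 6 and 0.0717 with control in mouse 1, so the difference rests on the control library of mouse 2 (adjusted p = 0.999 in edgeR). The most abundant further genes, Bnip3l, a mitophagy receptor, at 29.2 to 35.6 TPM, and Tfrc, the transferrin receptor, at 22.3 to 30.4 TPM, are used by many cell types.

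All 9 endothelial genes peaked in 1 library, the Numb exon 6 library of mouse 1, as did many other markers. Of the 9, 6 were higher with the Numb exon 6 morpholino in mouse 1 and lower with it in mouse 2 on the CPM scale, and 5 on the TPM scale, where Cdh5 was level in mouse 2. Over all lists that library was highest for 21 of 37 members, against 23.8% of all genes. It was highest for 4 of 5 smooth muscle and pericyte members and for 0 of 5 erythroid members. Of the further genes tested, it was highest for 11 of 16 glial and 3 of 10 tenocyte genes. The other libraries were highest for 1 member (control of mouse 1, 25.8% of all genes), 11 members (Numb exon 6 of mouse 2, 25.1%) and 4 members (control of mouse 2, 25.2%). Summed, the endothelial list had 76.2 TPM with the Numb exon 6 and 86.2 with the control morpholino in mouse 2, and 142 with Numb exon 6 and 84.4 with control in mouse 1.

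The adhesion genes of the endothelium followed this pattern to different degrees. Pecam1, the platelet and endothelial adhesion molecule CD31, had 9.31 TPM with the Numb exon 6 and 8.48 with the control morpholino in mouse 2, and 17.1 with Numb exon 6 and 8.17 with control in mouse 1. Cdh5, the cadherin of endothelial junctions, had 2.01 TPM (Numb exon 6) and 2.00 (control) in mouse 2, and 3.60 (Numb exon 6) and 1.95 (control) in mouse 1. Esam, an adhesion molecule of the same junctions, had 7.40 TPM (Numb exon 6) and 9.95 (control) in mouse 2, and 11.97 (Numb exon 6) and 7.57 (control) in mouse 1. Apart from the Numb exon 6 library of mouse 1, the libraries were close together for Pecam1 and Cdh5. Cldn5, a tight junction protein, had 14.7 TPM with the Numb exon 6 and 17.5 with the control morpholino in mouse 2, and 28.9 with Numb exon 6 and 19.1 with control in mouse 1.

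Of the receptor genes, Kdr, the main VEGF receptor, had 1.77 TPM with the Numb exon 6 and 2.59 with the control morpholino in mouse 2, and 3.80 with Numb exon 6 and 2.00 with control in mouse 1. Tie1, an orphan receptor of the angiopoietin system, had 2.98 TPM (Numb exon 6) and 3.52 (control) in mouse 2, and 4.39 (Numb exon 6) and 2.96 (control) in mouse 1. Flt1, a VEGF receptor that acts largely as a decoy, had 3.87 TPM (Numb exon 6) and 2.82 (control) in mouse 2, and 7.21 (Numb exon 6) and 5.39 (control) in mouse 1, so that it was higher with the Numb exon 6 morpholino in both and lower in mouse 2 throughout. Emcn, the sialomucin endomucin, had 3.91 TPM (Numb exon 6) and 1.94 (control) in mouse 2, and 4.79 (Numb exon 6) and 2.67 (control) in mouse 1, and both Numb exon 6 libraries lay above both controls. Aqp1, the water channel that endothelium shares with red cells, led the list with 30.3 TPM (Numb exon 6) and 37.4 (control) in mouse 2, and 60.6 (Numb exon 6) and 34.6 (control) in mouse 1.

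In edgeR over both mice, Emcn had the largest endothelial log2 fold change, 0.77 ± 0.31 (SE, adjusted p = 0.999), and Flt1 had 0.34 ± 0.41, Aqp1 0.28 ± 0.33 and Cldn5 0.20 ± 0.34. These SEs take in the gap between the mice. With the block for the mouse, Emcn had 0.76 ± 0.22, Flt1 0.35 ± 0.13, Aqp1 0.20 ± 0.27 and Cldn5 0.12 ± 0.23 (SE). With mouse 1's Numb exon 6 library left out, the list's median turned to -0.22, Flt1 to -0.14, Aqp1 to -0.31 and Cldn5 to -0.38. With that of mouse 2 left out the median was 0.70. These fits with a library left out had no block. Within the mice, the log2 ratio of Flt1 was 0.315 in mouse 1 and 0.390 in mouse 2. Flt1 and Cldn5 were lower in mouse 2 at an unadjusted p under 0.05, with log2 fold changes of -0.87 ± 0.20 and -0.60 ± 0.23 (SE). Over the whole list the sum in mouse 2 was 0.536-fold that of mouse 1 between the Numb exon 6 libraries and 1.02-fold between the controls.

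Of 18 further endothelial genes, 15 peaked with Numb exon 6 in mouse 1, against 23.8% of all genes. Of the same 18, 12 were higher with the Numb exon 6 morpholino in mouse 1 and lower in mouse 2, against 22% of all genes. Over the 84 further genes tested in all lists, these counts were 48 and 27. The most abundant, Cav1, the caveolar coat protein used by many cell types, had 188 TPM with the Numb exon 6 and 193 with the control morpholino in mouse 2, and 233 with Numb exon 6 and 212 with control in mouse 1. Rgcc, a regulator of the cell cycle, had 92.6 TPM (Numb exon 6) and 106 (control) in mouse 2, and 92.9 (Numb exon 6) and 79.2 (control) in mouse 1. After removal of the rRNA-like genes from the TPM, the summed endothelial members were still 1.62-fold the control in mouse 1 and 0.885-fold in mouse 2.

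Of the 5 smooth muscle and pericyte genes, 4 had lower CPM in both libraries of mouse 2 than in those of mouse 1. Acta2, smooth muscle actin, had 79.8 TPM with the Numb exon 6 and 72.6 with the control morpholino in mouse 2, and 106 with Numb exon 6 and 92.2 with control in mouse 1. Tagln, the actin-bundling transgelin, had 40.4 TPM (Numb exon 6) and 40.9 (control) in mouse 2, and 63.5 (Numb exon 6) and 57.9 (control) in mouse 1. Myh11, smooth muscle myosin, had 3.66 TPM (Numb exon 6) and 2.88 (control) in mouse 2, and 6.13 (Numb exon 6) and 3.60 (control) in mouse 1. The fourth of them was Cspg4, the NG2 proteoglycan of pericytes, which had 1.32 TPM (Numb exon 6) and 1.10 (control) in mouse 2, and 1.82 (Numb exon 6) and 1.38 (control) in mouse 1. Pdgfrb, the PDGF receptor of pericytes, went the other way with 3.76 TPM (Numb exon 6) and 3.58 (control) in mouse 2, and 3.14 (Numb exon 6) and 2.97 (control) in mouse 1. The further smooth muscle and pericyte genes did not share the pattern: 2 of 13 were lower in both libraries of mouse 2, against 18.8% of all genes. Their median log2 fold change (mouse 2 minus mouse 1) was 0.033, beside -0.577 for the 5 members.

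Over all lists 11 members were lower in both libraries of mouse 2, against 18.8% of all genes. The log2 fold change (mouse 2 minus mouse 1) in edgeR was -0.41 ± 0.11 (SE) for Acta2, -0.61 ± 0.11 for Tagln and -0.58 ± 0.23 for Cspg4. With Flt1 and Cldn5 these made 5 members lower in mouse 2 at an unadjusted p under 0.05, where 3.98% of all genes were. None of them passed adjustment (adjusted p 0.439 to 0.59), and the test called 0.0145% of all genes as lower in mouse 2. Over all genes the comparison of the mice made 7 calls in both directions, which became 28 when mouse 2's Numb exon 6 library was left out, 19 when its control was, and 1 when either library of mouse 1 was; no member was called in any of these.

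Between the morpholinos, the log2 ratio was 0.13 in mouse 1 and 0.11 in mouse 2 for Acta2, 0.05 and -0.04 for Tagln, and 0.004 and 0.035 for Pdgfrb. It was larger for Myh11, with 0.65 in mouse 1 and 0.31 in mouse 2, and for Cspg4, with 0.32 and 0.19. In edgeR the log2 fold change was 0.12 ± 0.21 (SE) for Acta2, 0.02 ± 0.30 for Tagln and 0.52 ± 0.30 for Myh11. With mouse 1's Numb exon 6 library left out these became -0.11, -0.36 and 0.09, and the list's median became -0.09. With the mouse 2 control left out, Acta2 became -0.07 and Tagln -0.25. These fits had no block for the mouse. With all 4 libraries and the block, Acta2 had 0.118 ± 0.086, Tagln 0.006 ± 0.103 and Myh11 0.483 ± 0.159 (SE). Of 13 further genes, Des, the intermediate filament desmin that muscle cells also make, had 681 TPM with the Numb exon 6 and 746 with the control morpholino in mouse 2, and 709 with Numb exon 6 and 747 with control in mouse 1. Rgs4, a regulator of G protein signalling, had 174 TPM (Numb exon 6) and 136 (control) in mouse 2, and 222 (Numb exon 6) and 130 (control) in mouse 1 (log2 fold change 0.52 ± 0.15, SE, adjusted p = 0.999 in edgeR). Abcc9, a potassium channel subunit of pericytes, had 2.25 TPM (Numb exon 6) and 1.56 (control) in mouse 2, and 2.29 (Numb exon 6) and 1.40 (control) in mouse 1 (0.53 ± 0.18, SE, adjusted p = 0.999).

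Among fibroblast and progenitor genes, the 2 most abundant were level while 5 sparser ones were higher with the Numb exon 6 morpholino in both mice. Gsn, the actin-severing gelsolin, had 779 TPM with the Numb exon 6 and 817 with the control morpholino in mouse 2, and 832 with Numb exon 6 and 811 with control in mouse 1. Dpt, the matrix protein dermatopontin, had 267 TPM (Numb exon 6) and 275 (control) in mouse 2, and 268 (Numb exon 6) and 253 (control) in mouse 1. Their log2 fold changes in edgeR were -0.07 ± 0.10 and -0.03 ± 0.10 (SE). The TPM of these 2 genes was higher with the Numb exon 6 morpholino in mouse 1, while the CPM of Gsn was lower there, so these signs depend on the scale, and with limma on log2(TPM + 1) Dpt had 0.02. Gsn alone made up 63.6% to 66.4% of the summed list, which without it was 1.15-fold the control in mouse 1 and 1.06-fold in mouse 2.

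Dcn and Lum, small proteoglycans that bind collagen, were higher with the Numb exon 6 morpholino in both mice. Dcn had 136 TPM with the Numb exon 6 and 112 with the control morpholino in mouse 2, and 160 with Numb exon 6 and 122 with control in mouse 1. Lum had 14.7 TPM (Numb exon 6) and 10.3 (control) in mouse 2, and 14.6 (Numb exon 6) and 11.8 (control) in mouse 1. Both Numb exon 6 libraries lay above both controls for Dcn, Lum and Pdgfra. The log2 fold change in edgeR was 0.29 ± 0.14 (SE) for Dcn and 0.35 ± 0.16 for Lum, each with an adjusted p of 0.999.

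The progenitor genes were lower. Pdgfra, the receptor that defines fibro-adipogenic progenitors, had 2.06 TPM with the Numb exon 6 and 1.11 with the control morpholino in mouse 2, and 1.88 with Numb exon 6 and 1.61 with control in mouse 1. Ly6a, the surface antigen Sca-1, had 9.07 TPM (Numb exon 6) and 7.25 (control) in mouse 2, and 11.1 (Numb exon 6) and 8.67 (control) in mouse 1. Pi16, a marker of a progenitor-like fibroblast state, had 1.88 TPM (Numb exon 6) and 1.24 (control) in mouse 2, and 2.08 (Numb exon 6) and 1.98 (control) in mouse 1. The control library of mouse 2 was the lowest for Pdgfra, Ly6a, Dcn, Lum and Pi16. How often that library was the lowest over all genes was not counted. Mfap5, a microfibril protein, had 14.55 TPM (Numb exon 6) and 12.02 (control) in mouse 2, and 11.5 (Numb exon 6) and 11.8 (control) in mouse 1, and was the member lower in mouse 1 and higher in mouse 2. The median of the list was 0.04 with the mouse 2 control left out and 0.14 with mouse 1's Numb exon 6 library left out. Of the further genes, Serping1, the C1 inhibitor, had 1053 TPM (Numb exon 6) and 1152 (control) in mouse 2, and 1173 (Numb exon 6) and 998 (control) in mouse 1, and Prelp, a matrix proteoglycan, had 70.5 TPM (Numb exon 6) and 69.7 (control) in mouse 2, and 85.2 (Numb exon 6) and 71.9 (control) in mouse 1.

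Among the tenocyte genes, the matrix genes Thbs4 (thrombospondin 4) and Fmod (fibromodulin) were higher with the Numb exon 6 morpholino in both mice. Thbs4 had 28.9 TPM with the Numb exon 6 and 22.9 with the control morpholino in mouse 2, and 28.4 with Numb exon 6 and 24.0 with control in mouse 1. Fmod had 17.1 TPM (Numb exon 6) and 15.4 (control) in mouse 2, and 23.4 (Numb exon 6) and 15.9 (control) in mouse 1. Tnmd, the tendon membrane protein tenomodulin, had 3.75 TPM (Numb exon 6) and 3.04 (control) in mouse 2, and 4.90 (Numb exon 6) and 4.21 (control) in mouse 1, and was lower in both libraries of mouse 2. In edgeR the log2 fold change was 0.23 ± 0.13 (SE) for Thbs4 and 0.31 ± 0.20 for Fmod.

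Of the tendon transcription factors, Mkx was highest by far in the control library of mouse 2. Mkx, the homeobox factor mohawk, had 2.13 TPM with the Numb exon 6 and 6.04 with the control morpholino in mouse 2, and 2.67 with Numb exon 6 and 2.63 with control in mouse 1. Scx, the factor scleraxis, had 0.6485 TPM (Numb exon 6) and 1.055 (control) in mouse 2, and 0.856 (Numb exon 6) and 0.863 (control) in mouse 1. On the CPM scale Scx was lowest with Numb exon 6 in mouse 2. For Mkx the other libraries were alike, and its log2 fold change of -0.96 ± 0.44 (SE, adjusted p = 0.999 in edgeR) became -0.22 with the mouse 2 control left out. The list's median turned to -0.05 without that control, and to -0.02 with mouse 1's Numb exon 6 library left out. The most abundant further genes were Egr1, an immediate early transcription factor that is not limited to tendon, with 1517 TPM (Numb exon 6) and 1179 (control) in mouse 2, and 957 (Numb exon 6) and 814 (control) in mouse 1, and Chodl, a membrane lectin, with 663 TPM (Numb exon 6) and 572 (control) in mouse 2, and 628 (Numb exon 6) and 486 (control) in mouse 1.

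The glial sum was carried by Pmp22. Pmp22, a membrane protein of compact peripheral myelin that fibroblasts also make when growth is arrested, had 119 TPM with the Numb exon 6 and 53.5 with the control morpholino in mouse 2, and 78.9 with Numb exon 6 and 45.1 with control in mouse 1. Both Numb exon 6 libraries lay above both controls, the ratio was 1.75-fold in mouse 1 and 2.23-fold in mouse 2, and the gene made up 70.1% to 84% of the list. Its log2 fold change in edgeR was 0.97 ± 0.23 (SE, adjusted p = 0.999). DESeq2 gave an adjusted p of 0.0394, and 2.2e-06 when the mouse was blocked for, while the block in edgeR left the adjusted p at 0.796. The log2 fold change in edgeR became 0.63 with mouse 2's Numb exon 6 library left out and 1.23 with that of mouse 1 left out. The leukocyte sum was also highest, at 134 TPM, with the Numb exon 6 morpholino in mouse 2, and its part in the result was not tested.

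The glial list without Pmp22 was 1.56-fold the control in mouse 1 and 1.02-fold in mouse 2, against 1.69-fold and 1.87-fold with it. Mbp, myelin basic protein, had 7.45 TPM with the Numb exon 6 and 5.66 with the control morpholino in mouse 2, and 13.4 with Numb exon 6 and 7.48 with control in mouse 1. On the CPM scale its log2 ratio was 0.73 for mouse 2 and 0.59 for mouse 1. Its TPM was 1.32-fold the control in mouse 2 and 1.8-fold in mouse 1, so which mouse differed more depends on the scale. Its log2 fold change was 0.64 ± 0.35 (SE, adjusted p = 0.999 in edgeR), which became 0.28 with mouse 1's Numb exon 6 library left out and 0.29 with the mouse 2 control left out. Mal, a proteolipid of myelin and of epithelial membranes, had 14.5 TPM (Numb exon 6) and 15.7 (control) in mouse 2, and 15.25 (Numb exon 6) and 10.98 (control) in mouse 1 (log2 fold change 0.11 ± 0.20), and turned to -0.11 with the mouse 1 control left out.

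**Figure D4:**
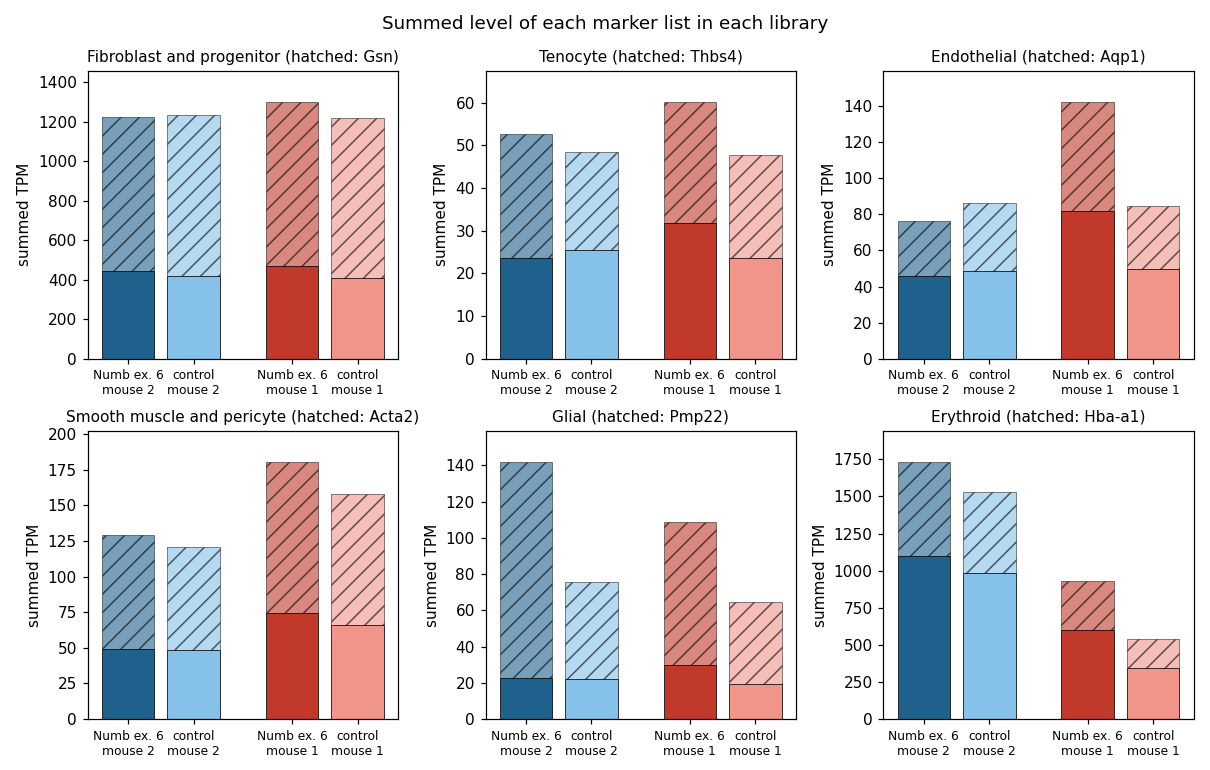
Summed TPM of each list in each library, with the most abundant gene of the list hatched on top of the others; the axis starts at 0 and each bar is 1 library. Pmp22 makes up most of the glial bars and nearly all of the glial difference in mouse 2, while the endothelial bar of the Numb exon 6 library of mouse 1, at 142 TPM, stands above the other 3.

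The defining glial genes were scarce. Sox10, the transcription factor of the Schwann cell lineage, had 0.537 TPM with the Numb exon 6 and 0.342 with the control morpholino in mouse 2, and 0.492 with Numb exon 6 and 0.447 with control in mouse 1. S100b, a calcium-binding protein of glia, had 0.218 TPM (Numb exon 6) and 0.549 (control) in mouse 2, and 0.794 (Numb exon 6) and 0.364 (control) in mouse 1. S100b rested on 39 estimated counts with Numb exon 6 and 130 with control in mouse 2, and on 193 with Numb exon 6 and 102 with control in mouse 1, and its log2 ratio was -1.32 for mouse 2 and 1.03 for mouse 1. Of the further glial genes, Egr2, a transcription factor of myelinating Schwann cells that is also an immediate early gene, had 120 TPM (Numb exon 6) and 82.4 (control) in mouse 2, and 99.3 (Numb exon 6) and 70.7 (control) in mouse 1 (log2 fold change 0.47 ± 0.15, SE, adjusted p = 0.999 in edgeR). Ngfr, the neurotrophin receptor p75, had 4.15 TPM (Numb exon 6) and 2.69 (control) in mouse 2, and 4.16 (Numb exon 6) and 2.46 (control) in mouse 1 (0.64 ± 0.19, SE, adjusted p = 0.999).

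Over the 6 lists of further genes, 84 of 89 passed the filter, edgeR called 0, and 5 had an unadjusted p under 0.05, where 4.16% of all genes did (Abcc9, Rgs4, Ngfr and Egr2 higher with the Numb exon 6 morpholino, Slc4a1 lower). The median log2 fold change of the further genes was 0.20, beside 0.27 for the members.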

How the data were processed

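RNA (5 ng a library) was turned into unstranded SMART-Seq2 cDNA and tagmented, per the labels' protocols. The submitters' processing notes name GRCm38, HISAT2 2.1.0 and StringTie 1.3.6. The authors deposited estimated counts (whole numbers) and TPM, a level scaled to length and library. Estimated counts were tested in edgeR 4.0.16 (R 4.3.3; quasi-likelihood, robust, TMM, default filter by group, no block), with Benjamini-Hochberg adjustment at 0.05 over 27551 genes. The SEs given for edgeR were derived as the absolute log2 fold change over the square root of the quasi-likelihood F statistic. For the morpholinos they come from the fit with no block unless stated, so they take in differences between the mice. Log2 ratios within a mouse used TMM-scaled CPM with a prior count of 2. DESeq2 1.42.0 and limma 3.58.1 were alternatives. Same-numbered libraries come from the same animal, per the labels, and deviated together (correlation across genes 0.401 over the 8469 genes with a mean log2 CPM from 3 up, 0.056 over all). The members and lists were chosen with earlier results of these data known. Named were all members, the 2 most abundant further genes per list and those with an unadjusted p under 0.05 and the same direction in both mice. A gene that this rule would name is not reported here. Fitted changes are given for the 2 most abundant members per list, the largest change per list, and those with a p under 0.05 with the block. Coordinates come from GENCODE vM21 on GRCm38.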

Additional observations from a re-analysis of the deposited data

How the results depend on the processing

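With 2 libraries per group, 1 library can turn a direction, and low members rest on few fragments. The log2 fold changes of the 21 members with a fitted value (19 of which pass the stricter filter below) kept their direction in edgeR with the replicate block, other size factors, other filters, counts divided by 4 and removal of the rRNA-like genes. In edgeR the replicate block left 0 genes and 0 members called. Against 0 genes called by edgeR, 10 were called with no filter, 1 with a stricter filter (2 libraries at a CPM of 5 or more), 81 by DESeq2 and 150 by DESeq2 with the replicate block, and these last 2 each called 1 member. Leaving out each library in turn gave 0 to 1. The tenocyte median of 0.19 became 0.26 with the stricter filter and 0.25 with limma on log2(TPM + 0.1). The smooth muscle median of 0.12 became 0.06 with the stricter filter and 0.17 with both limma settings. The glial median of 0.42 became 0.63 with the stricter filter, 0.17 with log2(TPM + 1) and 0.32 with log2(TPM + 0.1). Dpt turned to 0.02 in both limma settings and Tagln to -0.0009 in DESeq2 with the replicate block; the cause was not tested. Without its most abundant member, the mean log2 ratio of the sums was 0.14 for fibroblasts and 0.34 for glia. With the morpholino as a block the comparison of the mice made 1 call in place of 7, and leaving out each library in turn gave 1 to 28. Leaving out each library in turn moved the medians between 0.04 and 0.42 for fibroblasts, -0.05 and 0.29 for tenocytes, -0.22 and 0.70 for endothelium, -0.09 and 0.33 for smooth muscle, 0.28 and 0.63 for glia, and -0.21 and 1.22 for erythroid genes. The same removal gave ranges that cross 0 for Flt1 (-0.14 to 0.87), Cldn5 (-0.38 to 0.60), Aqp1 (-0.31 to 0.70), Acta2 (-0.11 to 0.33), Tagln (-0.36 to 0.33), Mal (-0.11 to 0.36), Hba-a1 (-0.23 to 1.23), Hbb-bs (-0.21 to 1.22) and Hbb-bt (-0.13 to 1.36). These fits had no block for the mouse, so each set 1 library of 1 mouse against both mice. Their ranges therefore take in differences between the animals. Within the mice, the log2 ratio was positive in both for Flt1 (0.315 in mouse 1 and 0.390 in mouse 2), Acta2 (0.130 and 0.106) and these 3 globins. It had opposite signs in the mice for Cldn5, Aqp1, Tagln and Mal.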
